A study of Homo sapiens with 4 samples.

Results

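The long-chain acyl-CoA synthetases examined here were ACSL1, ACSL3, ACSL4, ACSL5 and ACSL6, chosen by gene symbol: 5 of 34608 gene identifiers and 52 of 119207 listed transcripts. RNA was sequenced from A549, a human cell line derived from a lung adenocarcinoma with alveolar epithelial features. The cells were given 100 nM dexamethasone (dex), a synthetic ligand of the glucocorticoid receptor (GR), or its vehicle, 0.02% ethanol (etoh), and RNA was taken after 3 h. Each group had 2 libraries. The series concerns GR binding sites across the genome, and this comparison asks which RNAs differed in abundance after 3 h of hormone. Nothing in the labels tells whether replicate libraries were grown as separate cultures, and the p-values therefore reflect the spread between these 4 libraries alone, part or all of which may be technical.

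Long-chain acyl-CoA synthetases join a fatty acid to coenzyme A at the cost of ATP, and the acyl-CoA made is trapped in the cell and ready for use. It can be built into triglyceride, phospholipid and cholesterol ester, elongated or desaturated, or oxidised in mitochondria and peroxisomes. The family members differ in tissue, in membrane and in the fatty acids they prefer. In lung epithelium, the acylation of phospholipids also serves surfactant. ACSL1 is the main form of adipose tissue, liver and heart and a known target of PPAR transcription factors. ACSL3 is found on the endoplasmic reticulum and on nascent lipid droplets. ACSL4 prefers arachidonic acid and other polyunsaturated fatty acids and is required for ferroptosis, a form of cell death driven by lipid peroxidation. ACSL5 is best known from intestine and liver, where it lies partly on mitochondria, and ACSL6 from brain, where it takes part in the retention of docosahexaenoic acid.

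Depth was 9828448 and 11138944 aligned reads for the dex libraries and 9764159 and 11887526 for the etoh libraries, and levels are given per 1000000 aligned reads (CPM), as means ± SD with n = 2 libraries per group. Fold changes are dex over etoh from edgeR's quasi-likelihood test across 14777 genes, with Benjamini-Hochberg adjustment and a threshold of 0.05. The labels were checked on 2 hormone-responsive genes: FKBP5, a GR co-chaperone, had 232 and 229 CPM in dex and 22.1 and 22.6 CPM in etoh, and TSC22D3, the gene of the protein GILZ, had 174 and 161 CPM in dex and 7.58 and 7.82 CPM in etoh. All 7 epithelial and A549 markers had a mean of at least 1 CPM, and their summed level was 10072 to 11127 CPM in dex and 7333 to 7850 CPM in etoh. They did not move together: KRT8 and KRT18 were higher in dex, and AKR1B10 and AKR1C1 were lower. KRT8 had 3805 and 3167 CPM in dex and 1660 and 1795 CPM in etoh. AKR1B10 had 2010 and 2105 CPM in dex and 2409 and 2232 CPM in etoh. Of 6 alveolar type II markers, 1 had such a mean, and the 6 together held 29.4 to 40.8 CPM in dex and 24.1 to 27.7 CPM in etoh. Summed markers of leukocytes were 6.19 to 7.43 CPM in dex and 5.43 to 5.55 CPM in etoh, with 2 of 6 at a mean of 1 CPM or more. Fibroblast markers summed to 18.5 to 24.1 CPM in dex and 15.5 to 18.3 CPM in etoh, again with 2 of 6. No marker of endothelium (summed to 0.449 to 1.02 CPM in dex and 0.252 to 0.307 CPM in etoh) or of hepatocytes and adipocytes (0.407 to 0.628 CPM in dex and 0.614 to 1.26 CPM in etoh) had a mean of 1 CPM. SFTPA1, SFTPA2, COL1A2, VWF, CD3E and APOA1 were at 0 in all 4 libraries. The part of any of these differences in the results on the synthetases was not tested.

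After 3 h of dexamethasone, 2 of the 5 long-chain synthetase genes rose and none fell. ACSL1 rose to 3.02 times its vehicle level and ACSL3 to 1.32 times. ACSL4 differed by less than the spread between its libraries. ACSL5 and ACSL6 were scarce in every library. Across all genes tested, 11.4% passed the test, 6.98% being higher and 4.42% lower in dex.

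**Figure D1:**
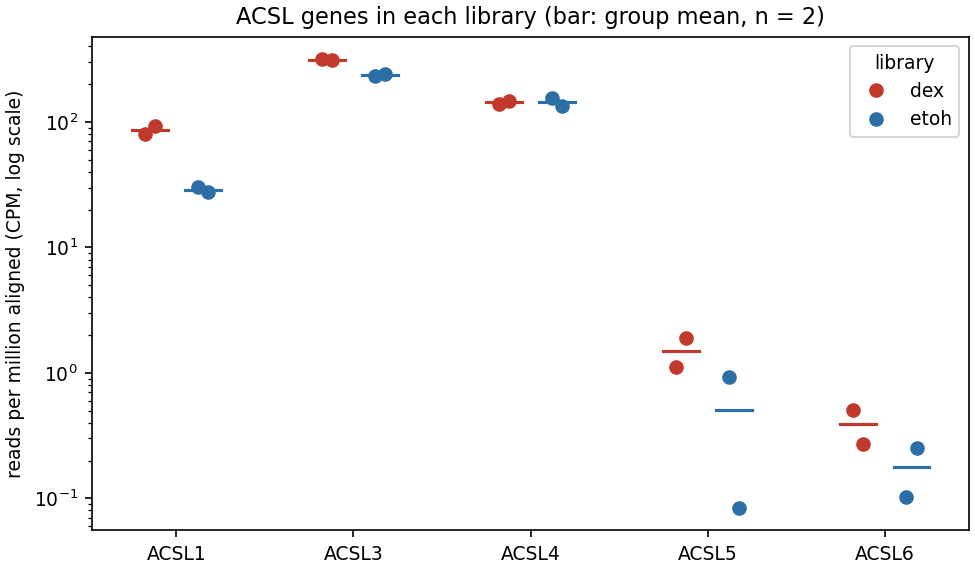
Level of each synthetase gene in each library (CPM, log axis), with dex left of etoh and a bar at the mean of the 2 libraries. The dex points of ACSL1 and ACSL3 lie above their etoh points, those of ACSL4 overlap, and those of ACSL5 and ACSL6 lie at or below 1.89 CPM.

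ACSL1 (ENSG00000151726.9) lies at chr4:184755595-184826818 on the minus strand in GENCODE 29 on GRCh38. It had 787 and 1033 reads in the dex libraries, against 295 and 327 reads in the etoh libraries. Scaled to depth these were 80.1 and 92.7 CPM in dex and 30.2 and 27.5 CPM in etoh. Both dex libraries stood well above both etoh libraries. The means were 86.4 ± 8.95 CPM in dex and 28.9 ± 1.91 CPM in etoh (SD, n = 2 each). The log2 fold change was 1.60, with an SE of 0.12 (edgeR quasi-likelihood test, adjusted p 1.82e-09). The ratio of summed reads, scaled to depth, was 3.02, with a 95% exact conditional binomial interval of 2.76 to 3.31 that covers counting error only. In RNA from a whole culture, more cells that express a gene and more RNA per cell cannot be told apart.

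ACSL3 (ENSG00000123983.9), at chr2:222860934-222944639 on the plus strand, was the most abundant member. It had 317 and 312 CPM in dex and 234 and 240 CPM in etoh, from 2284 to 3470 reads per library. The groups did not overlap, and the libraries of a group lay close together. The share of all genes without overlap was not counted. Its means were 314 ± 3.69 CPM in dex and 237 ± 4.30 CPM in etoh. ACSL3 rose by 0.42 on the log2 scale, with an SE of 0.09 (edgeR quasi-likelihood test, adjusted p 0.00347). The ratio of summed reads, scaled to depth, was 1.32 (95% counting interval 1.28 to 1.37), which does not reach the interval of ACSL1.

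ACSL4 (ENSG00000068366.15), at chrX:109624244-109733403 on the minus strand, showed no difference that passed the test. It had 139 and 148 CPM in dex and 155 and 134 CPM in etoh, so that both dex values lay between the etoh values. The means were 143 ± 6.69 CPM in dex and 145 ± 14.9 CPM in etoh. The log2 fold change was 0.0038, with an SE of 0.11 (edgeR quasi-likelihood test, adjusted p 0.991). With 3011 reads in dex and 3111 in etoh, the ratio of summed reads, scaled to depth, was 0.999, with a counting interval of 0.9503 to 1.05. Its sign was not stable: the log2 fold change lay between -0.11 (without etoh replicate 2) and 0.13 (without etoh replicate 1) when 1 library was left out. Under scaling by upper-quartile factors it was -0.01.

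ACSL5 (ENSG00000197142.6), at chr10:112374018-112428380 on the plus strand, had 11 and 21 reads in dex and 9 and 1 reads in etoh. These are 1.12 and 1.89 CPM in dex and 0.922 and 0.0841 CPM in etoh. The groups were only narrowly apart, at 11 reads in dex replicate 1 and 9 in etoh replicate 1. The spread was wide in both groups, with SDs of 0.542 CPM in dex and 0.592 CPM in etoh. The log2 fold change of 1.70, with an SE of 0.61, did not pass the threshold (edgeR quasi-likelihood test, adjusted p 0.0813). The ratio of summed reads, scaled to depth, was 3.30, with a wide counting interval of 1.58 to 7.54. A single library decided the value: the log2 fold change was 0.72 (adjusted p 0.578) without etoh replicate 2, 4.03 (adjusted p 0.00664) without etoh replicate 1, 1.27 (adjusted p 0.363) without dex replicate 2 and 2.00 (adjusted p 0.0477) without dex replicate 1. It passed with no count filter (1.69, adjusted p 0.0263) and in limma-voom (2.24, adjusted p 0.0359). Exons of ACSL5 also overlap those of ZDHHC6, a palmitoyltransferase gene on the opposite strand that had 2291 reads in the 4 libraries. Whether the counting used strand is not given here, so reads of the overlapping stretch cannot be told apart.

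ACSL6 (ENSG00000164398.8), at chr5:131949973-132012243 on the minus strand, had 5 and 3 reads in dex and 1 and 3 reads in etoh. Only 3 of its 19 listed transcripts had any read. It did not pass the count filter and was not tested. Its summed ratio of 2.07 had a counting interval of 0.553 to 9.37, so a difference was not detectable at this depth. ACSL6-001 had 5 and 0 reads in dex and 0 and 2 reads in etoh. Of its stretches of 36 bases, 3.60% were also found in other genes, 1353 in all. Whether these few reads came from ACSL6 cannot be told. A count of 3 reads corresponds to 0.252 to 0.307 CPM in these libraries.

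Levels of different genes are compared here per length, as reads per kilobase of the gene's longest listed transcript per 1000000 aligned reads. On this scale ACSL3 led with 55.3 ± 0.649 in dex and 41.7 ± 0.757 in etoh. ACSL4 followed with 26.9 ± 1.25 in dex and 27.1 ± 2.80 in etoh, and ACSL1 with 21.9 ± 2.27 in dex and 7.31 ± 0.484 in etoh. ACSL1 thus lay well under ACSL4 in both etoh libraries and nearer to it, though still lower, in both dex libraries. ACSL5 had 0.444 ± 0.160 in dex and 0.149 ± 0.175 in etoh, and ACSL6 had 0.0595 ± 0.0259 in dex and 0.0271 ± 0.0162 in etoh. These last neighbours overlapped in etoh and were apart in dex. Summing the length-scaled transcripts instead gave the same order in both groups for the 3 abundant members, with ACSL3 at 145 ± 9.95 in dex and 107 ± 0.907 in etoh.

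The makeup of the family shifted towards ACSL1. Its share of the summed length-scaled level was 20.9% ± 1.57 in dex and 9.57% ± 0.298 in etoh. The share of ACSL4 was 25.7% ± 0.461 in dex and 35.5% ± 2.42 in etoh, while its own level overlapped between the groups. ACSL3 made up 52.9% ± 2.14 in dex and 54.7% ± 2.91 in etoh, and these shares overlapped between libraries. On the summed length-scaled transcripts the shares were 14.7% ± 1.5001 in dex and 6.96% ± 0.224 in etoh for ACSL1. On that scale they were 17.2% ± 0.398 in dex and 23.3% ± 2.61 in etoh for ACSL4, and 67.8% ± 1.94 in dex and 69.6% ± 2.48 in etoh for ACSL3. The 5 genes together held 537 and 554 CPM in dex and 420 and 402 CPM in etoh, a ratio of means of 1.33. No test was made of the shares or of this sum.

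**Figure D2:**
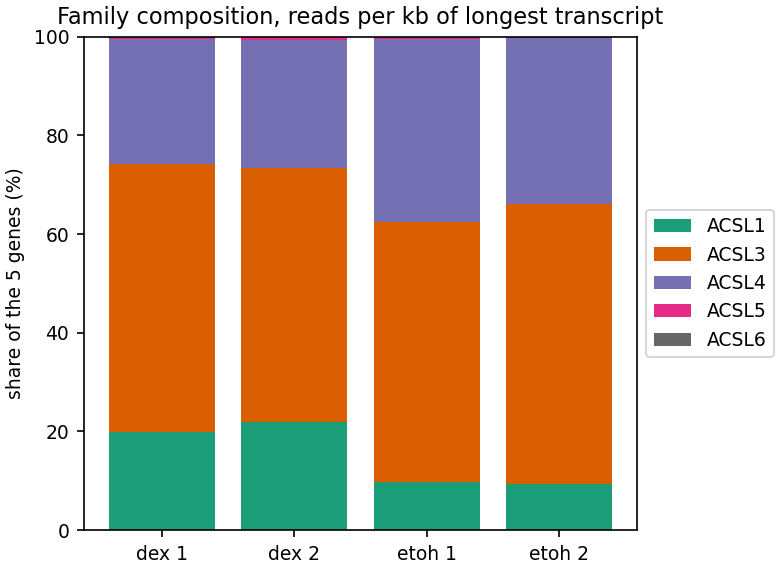
Share (%) of each synthetase in the summed reads per kilobase of the longest transcript, per library, with dex libraries left of etoh libraries. ACSL1 made up 19.8% and 22.01% in dex and 9.78% and 9.36% in etoh, and ACSL5 and ACSL6 together are barely visible.

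Start regions of the 3 abundant members are printed, for genes that passed the test (ACSL1, ACSL3) and for ACSL4, which did not. Of the ACSL1 windows, only the shared start and 1 inner start are printed. Sequences are from RefSeq on GRCh38.p14, 250 bases before to 50 after an annotated start, 5′ to 3′ on the strand of the gene. Capitals mark, on either strand, the GC box GGGCGG bound by SP1-type factors, the CCAAT box and AGAACA, one arm of the palindrome bound by GR.
ACSL1 shared start chr4:184825919-184826218 (-): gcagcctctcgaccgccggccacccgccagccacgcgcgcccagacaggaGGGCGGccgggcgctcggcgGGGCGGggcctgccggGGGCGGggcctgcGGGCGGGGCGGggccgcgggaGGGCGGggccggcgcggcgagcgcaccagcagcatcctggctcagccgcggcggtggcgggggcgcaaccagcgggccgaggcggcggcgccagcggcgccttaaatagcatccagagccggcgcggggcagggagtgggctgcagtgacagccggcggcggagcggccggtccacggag
ACSL1 inner start chr4:184812202-184812501 (-): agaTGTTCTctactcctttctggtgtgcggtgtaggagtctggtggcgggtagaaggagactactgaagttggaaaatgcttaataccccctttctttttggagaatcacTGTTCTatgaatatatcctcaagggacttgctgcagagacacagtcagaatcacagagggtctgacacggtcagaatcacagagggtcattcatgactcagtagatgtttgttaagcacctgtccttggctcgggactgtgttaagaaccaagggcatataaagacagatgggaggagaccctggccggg
ACSL3 start chr2:222860786-222861085 (+): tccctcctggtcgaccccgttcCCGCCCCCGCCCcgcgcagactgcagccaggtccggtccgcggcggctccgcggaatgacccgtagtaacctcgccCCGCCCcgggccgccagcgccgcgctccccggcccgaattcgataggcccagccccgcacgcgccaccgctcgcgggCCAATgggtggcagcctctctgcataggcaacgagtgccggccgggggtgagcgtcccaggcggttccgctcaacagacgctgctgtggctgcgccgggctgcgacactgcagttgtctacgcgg
ACSL4 start chrX:109733208-109733507 (-): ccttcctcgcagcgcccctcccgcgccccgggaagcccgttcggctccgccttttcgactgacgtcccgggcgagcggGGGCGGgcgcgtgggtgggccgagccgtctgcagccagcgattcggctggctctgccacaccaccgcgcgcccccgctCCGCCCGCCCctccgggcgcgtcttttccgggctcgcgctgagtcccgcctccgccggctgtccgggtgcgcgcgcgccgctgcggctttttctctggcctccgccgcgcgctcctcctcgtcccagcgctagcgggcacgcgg
The shared start of ACSL1, where 4 listed transcripts begin, held 6 GC boxes and those of ACSL3 and ACSL4 held 3 each, with a GC content of 82.3% for ACSL1, 74.0% for ACSL3 and 77.7% for ACSL4, against a median of 58.7% over 35116 RefSeq promoters of the same length. A GC box was present in 45.0% of those promoters and in 8 of the 16 of the 5 synthetase genes. Some of the 16 windows overlap, and the same GC box of ACSL6 was counted in more than 1 of them. CCAAT was present in 34.6% of all promoters and in 2 of the 16, among them that of ACSL3. The inner start of ACSL1 held 2 copies of AGAACA, read on the other strand as TGTTCT. At least 1 copy was present in 14.8% of all promoters and in 4 of the 16. No other ACSL1 window held AGAACA, and the rest of the 4 were of ACSL5 and ACSL6, which were scarce in every library. The ACSL1 window at chr4:184805504-184805803, not printed, held 0 copies. Its transcript had the largest ratio of means (dex over etoh) among the ACSL1 windows compared below, 4.07. The whole GR palindrome, both arms with a spacer of 3 bases between them, was in 0.00285% of all promoters and in none of the 16, and the consensus PPAR direct repeat was in 0.0228% of all promoters and in none of the 16. A match describes letters only, and its absence says nothing of binding in or outside these windows.

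Reads placed on ACSL1 transcripts were higher in dex for each of 3 RefSeq start windows that hold a listed transcript start. These reads separate the starts poorly, as the transcripts share most of their sequence. Of their stretches of 36 bases, 0% were in ACSL1-001 alone, 4.31% in ACSL1-002 alone and 15.2% in ACSL1-007 alone. The 4 transcripts that begin in the shared window (ACSL1-001, ACSL1-004, ACSL1-005 and ACSL1-006) together had 36.8 ± 3.42 CPM in dex and 12.7 ± 2.02 CPM in etoh. They held 42.6% ± 0.455 of the reads of ACSL1 in dex and 43.9% ± 4.10 in etoh. ACSL1-011, with 13.6 ± 2.65 CPM in dex and 4.54 ± 0.825 CPM in etoh, starts upstream of the shared window, at chr4:184826818, and outside all windows used here. ACSL1-002, from the inner window printed, had 6.80 ± 0.410 CPM in dex and 2.45 ± 0.0130 CPM in etoh. ACSL1-007, which starts further inside the gene at chr4:184805504-184805803, had 6.31 ± 0.859 CPM in dex and 1.55 ± 0.308 CPM in etoh. The ratios of means were 2.90 for the shared window, 2.78 for ACSL1-002 and 4.07 for ACSL1-007. Because these transcripts share sequence, the 3 ratios are not independent.

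Of the 52 listed transcripts, 24 had enough reads for a test of each transcript, and 13 of them were higher in dex and none lower in edgeR's quasi-likelihood test. Over all 49857 transcripts tested, 5.64% passed, 3.57% higher and 2.07% lower. The 13 were 10 of ACSL1 and 3 of ACSL3, the 2 genes that passed the gene test. Transcripts of a gene share sequence, so the 13 are not independent results and add no replication to the gene test. All 10 tested transcripts of ACSL1 rose, with log2 fold changes from 1.25 to 2.02 and a median of 1.59. The most abundant, ACSL1-005, had 126 and 174 reads in dex and 43 and 48 reads in etoh, a log2 fold change of 1.77 (SE 0.19, adjusted p 2.83e-07 in edgeR's quasi-likelihood test). ACSL1-007 had the largest value, 2.02 (SE 0.28), from 56 and 77 reads in dex and 13 and 21 reads in etoh. ACSL1-006 had the smallest, 1.25 (SE 0.26), from 58 and 68 reads in dex and 29 and 26 reads in etoh. The other 6 with a mean of at least 5 CPM in dex had log2 fold changes of 1.48 to 1.67. They had 52 to 172 reads per dex library and 17 to 53 per etoh library. The 4 transcripts with the longest coding sequence, of 2097 bases, held 46.4% ± 1.53 of the reads of ACSL1 in dex and 45.6% ± 2.64 in etoh. ACSL1-004, with 32 and 32 reads in dex and 13 and 14 reads in etoh, did not pass in DESeq2 (adjusted p 0.334), nor did ACSL1-006 (adjusted p 0.0651). ACSL1-004 also lost its call without dex replicate 1 (adjusted p 0.111) and without etoh replicate 2 (adjusted p 0.0971). The eleventh transcript, ACSL1-008, was not tested.

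**Figure D3:**
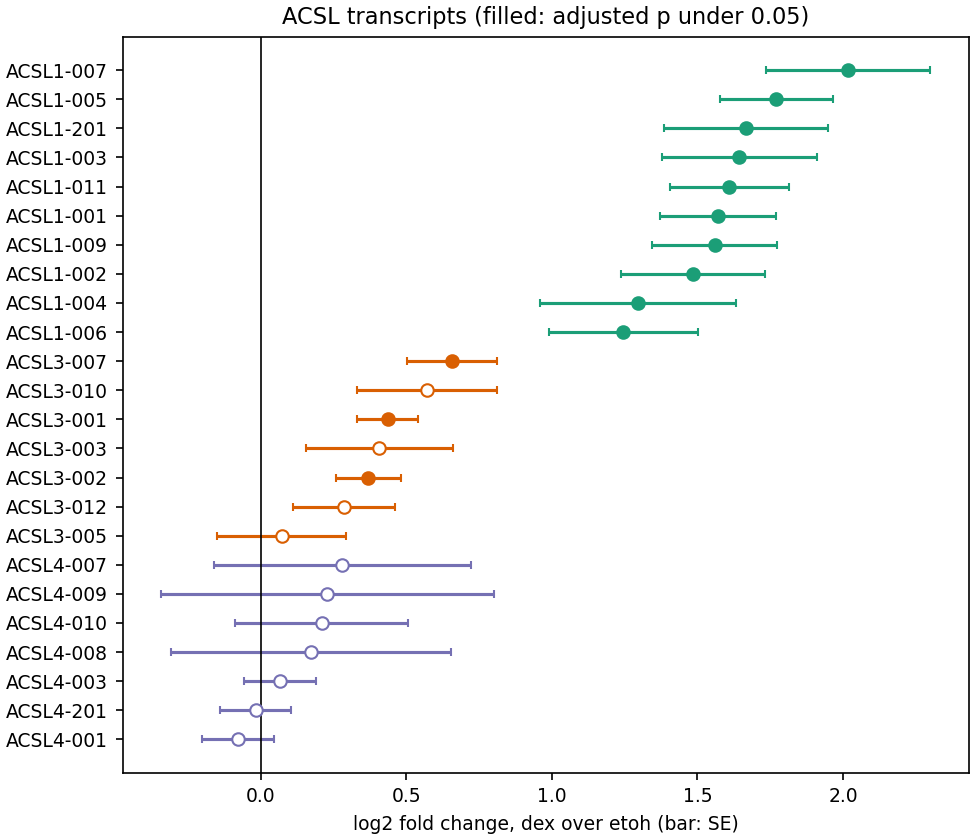
Log2 fold change (dex over etoh) with its SE for the 24 tested synthetase transcripts, filled where the adjusted p was under 0.05. All 10 ACSL1 transcripts lie between 1.25 and 2.02, the 7 ACSL3 transcripts between 0.07 and 0.66 and the 7 ACSL4 transcripts between -0.08 and 0.28.

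Reads of ACSL3 were mostly placed on 2 transcripts that carry its longest coding sequence, of 2163 bases, ACSL3-001 and ACSL3-002. Of their stretches of 36 bases, 43.0% were in ACSL3-001 alone and 1.03% in ACSL3-002 alone. Reads of ACSL3-002 are therefore poorly told apart from those of other ACSL3 transcripts, and the 2 results below are not independent. Together they held 84.3% ± 1.78 of its reads in dex and 84.7% ± 0.308 in etoh. ACSL3-001 had 173 and 171 CPM in dex and 127 and 129 CPM in etoh, a log2 fold change of 0.44 (SE 0.11, adjusted p 0.00969 in edgeR's quasi-likelihood test). ACSL3-002 had 90.6 and 95.4 CPM in dex and 70.5 and 74.7 CPM in etoh, with a log2 fold change of 0.37 (SE 0.11, adjusted p 0.0489 in the same edgeR test). ACSL3-007, listed in GENCODE 29 as a target of nonsense-mediated decay, had 23.5 and 18.6 CPM in dex and 13.9 and 13.0 CPM in etoh, and its log2 fold change was 0.66 (SE 0.15). The dex and etoh libraries did not overlap for these 3 transcripts, nor for ACSL3-010 and ACSL3-012, which did not pass. The share of all transcripts without overlap was not counted. The other 4, at 4.49 to 13.3 CPM in dex and 3.28 to 10.3 CPM in etoh, did not pass the test and had log2 fold changes of 0.07 to 0.57. ACSL3-002 lay close to the threshold and lost its call when any 1 of the 4 libraries was left out (adjusted p 0.109 to 0.334), with 3 other scalings (0.0543 to 0.0771), with no filter (0.0597) and in DESeq2 (0.181). ACSL3-001 lost it without etoh replicate 1 (adjusted p 0.0668) and ACSL3-007 without dex replicate 1 (0.200) or etoh replicate 2 (0.0615) and in DESeq2 (0.104).

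ACSL4 reads lay mainly on 3 long transcripts. ACSL4-003 had 45.7 and 50.5 CPM in dex and 49.9 and 43.0 CPM in etoh, ACSL4-201 had 44.4 and 47.0 CPM in dex and 49.7 and 43.7 CPM in etoh, and ACSL4-001 had 40.6 and 44.5 CPM in dex and 48.3 and 42.4 CPM in etoh. The groups overlapped for each. The 2 transcripts with a coding sequence of 2136 bases were given 65.4% ± 0.622 of the reads in dex and 64.3% ± 0.326 in etoh. The 1 with 2013 bases was given 29.7% ± 0.554 in dex and 31.4% ± 0.328 in etoh. Of their stretches of 36 bases, 0.674% were in ACSL4-003 alone, 0% in ACSL4-201 alone and 0.921% in ACSL4-001 alone. The shares therefore describe where reads were placed, and the proportion of the 2 coding forms cannot be told from them. The 4 short transcripts tested lay at 0.628 to 3.36 CPM in dex and 0.336 to 2.66 CPM in etoh. None of the 7 tested ACSL4 transcripts had an unadjusted p under 0.05. No transcript of ACSL5 or ACSL6 had enough reads for a test.

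Whether transcripts of a gene changed unequally was tested with edgeR's diffSpliceDGE, which sets each transcript's change against that of its gene. None of the 24 synthetase transcripts passed and none had an unadjusted p under 0.05. Over all 45754 transcripts in this test 0 passed (0%); at an unadjusted p of 0.05, 661 were higher and 529 lower, and no other tool was run. The smallest unadjusted p-values were 0.135 for ACSL3-005, 0.164 for ACSL1-007 and 0.514 for ACSL4-010. How far the reads can separate the transcripts is limited, since they share most of their sequence. Of the stretches of 36 bases in ACSL1-001, 0% were in that transcript alone. The share was 43.0% in ACSL3-001, 1.03% in ACSL3-002 and 0.674% in ACSL4-003. The search covered GENCODE 29 transcripts whose identifiers are also listed in these data. The ACSL1, ACSL3 and ACSL4 transcripts were matched there by identifier and length, all but ACSL1-201. None of their stretches was found in another gene searched.

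The synthetases were next set beside the genes that supply, use or hydrolyse acyl-CoA. Of 137 other genes of the pathway, 108 were tested, 7 were higher in dex (6.48%) and 1 was lower (0.926%) in edgeR's quasi-likelihood test. Their median log2 fold change was 0.09, against -0.0026 over all genes tested. The share that rose was close to the 6.98% of all genes.

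**Figure D4:**
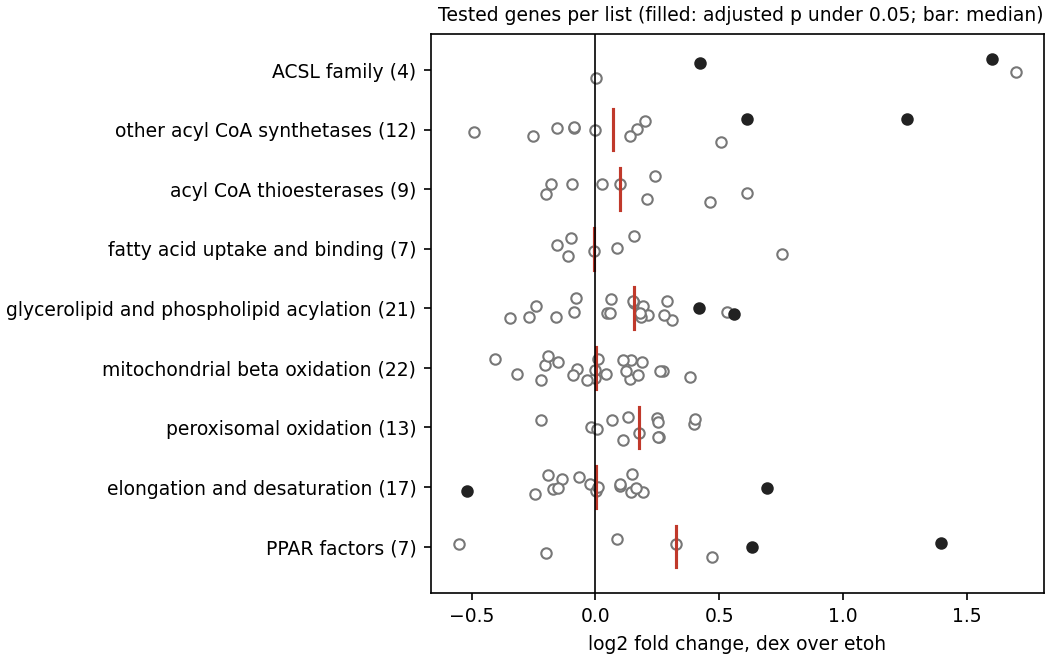
Log2 fold change (dex over etoh) of each tested gene in the long-chain synthetase family and 8 lists of related genes, with the number tested in parentheses, filled points for an adjusted p under 0.05 and red bars at the medians of the related lists. Only 8 genes outside the family are filled, and the mitochondrial and peroxisomal oxidation lists have none.

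Among other acyl-CoA synthetases, 2 of 12 tested (16.7%) were higher and none lower, against 6.98% higher over all genes. Their median log2 fold change was 0.07. ACSS1, which activates acetate in mitochondria, had 24.6 and 26.8 CPM in dex and 9.52 and 12.1 CPM in etoh, a log2 fold change of 1.26 (SE 0.16, adjusted p 4.90e-06 in edgeR's quasi-likelihood test). AACS, which activates acetoacetate in the cytosol, had 37.7 and 33.8 CPM in dex and 22.1 and 25.1 CPM in etoh, and its log2 fold change was 0.61 (SE 0.13, adjusted p 0.00271 in the same edgeR test). Neither acts on long-chain fatty acids. Of the synthetases that did not pass, the very long-chain enzyme SLC27A2 had a log2 fold change of -0.16 (SE 0.11) and ACSBG1 of -0.09 (SE 0.12). None of the 9 thioesterases tested, which split acyl-CoA back to fatty acid, passed, and their median was 0.10. ACOT9 had 77.7 ± 0.487 CPM in dex and 77.2 ± 1.57 CPM in etoh, and THEM4 had 58.5 ± 1.17 CPM in dex and 51.2 ± 7.47 CPM in etoh. No gene of the 7 tested for uptake and binding passed either, against 11.4% of all genes. The fatty acid-binding protein FABP5 had 81.4 ± 8.93 CPM in dex and 88.4 ± 8.67 CPM in etoh, and the peroxisomal acyl-CoA-binding protein ACBD5 had 103 ± 14.6 CPM in dex and 113 ± 3.996 CPM in etoh.

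Genes that consume acyl-CoA were next examined by route. In glycerolipid and phospholipid acylation, 2 of 21 tested (9.52%) were higher and none lower, against 6.98% higher over all genes, with a median of 0.15. AGPAT9, the symbol in the files for glycerol-3-phosphate acyltransferase GPAT3, had 73.9 and 71.6 CPM in dex and 47.0 and 52.8 CPM in etoh, a log2 fold change of 0.56 (SE 0.11, adjusted p 0.00124 in edgeR's quasi-likelihood test). MBOAT2, a lysophospholipid acyltransferase, had 91.2 and 103 CPM in dex and 76.2 and 70.8 CPM in etoh, and its log2 fold change was 0.42 (SE 0.11, adjusted p 0.0124 in that edgeR test). The call for MBOAT2 was lost without dex replicate 2 (adjusted p 0.0905) or etoh replicate 2 (0.101). AGPAT5 and the surfactant acyltransferase LPCAT1 did not pass, with log2 fold changes of 0.15 (SE 0.10) and 0.06 (SE 0.10). Of 22 genes of mitochondrial beta-oxidation and 13 of peroxisomal oxidation, none passed in either direction, against 11.4% of all genes. Their medians were 0.0033 and 0.18. HADHA, a subunit of the mitochondrial trifunctional protein, had 201 ± 10.9 CPM in dex and 181 ± 9.83 CPM in etoh, and the very long-chain dehydrogenase ACADVL had 158 ± 3.39 CPM in dex and 145 ± 20.1 CPM in etoh. The peroxisomal transporter gene ABCD3 had a log2 fold change of 0.13 (SE 0.10).

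In elongation and desaturation, 1 of 17 genes tested was higher and 1 lower, with a median of 0.0020. In either direction 11.8% passed, close to the 11.4% of all genes. FADS3, a member of the fatty acid desaturase family, had 17.0 and 17.8 CPM in dex and 11.0 and 10.9 CPM in etoh, a log2 fold change of 0.69 (SE 0.16, adjusted p 0.00579 in edgeR's quasi-likelihood test). Counted on its largest transcript alone, the log2 fold change of FADS3 was 0.40 and did not pass (adjusted p 0.506). ELOVL7, an elongase of long-chain acyl-CoA, had 20.3 and 30.0 CPM in dex and 37.4 and 36.004 CPM in etoh, and it fell by 0.52 on the log2 scale (SE 0.15, adjusted p 0.0248 in that edgeR test). Without dex replicate 1 the log2 fold change of ELOVL7 was -0.28 (adjusted p 0.417), without etoh replicate 1 the adjusted p was 0.0566, and DESeq2 gave an adjusted p of 0.0856. PTPLAD1, a dehydratase of elongation, and SCD, the stearoyl-CoA desaturase, were abundant and did not pass, with log2 fold changes of -0.07 (SE 0.09) and -0.24 (SE 0.09).

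PPAR transcription factors, their RXR partners and coactivators were listed because PPARs are known regulators of ACSL genes. Of 7 tested, 2 were higher (28.6%) and none lower, against 6.98% higher over all genes, with a median of 0.33. The share rests on 2 genes. PPARGC1B, a coactivator of nuclear receptors, had 37.0 and 34.9 CPM in dex and 13.1 and 14.5 CPM in etoh, a log2 fold change of 1.40 (SE 0.14, adjusted p 1.84e-07 in edgeR's quasi-likelihood test). PPARA had 10.7 and 11.0 CPM in dex and 7.58 and 6.65 CPM in etoh, and its log2 fold change was 0.63 (SE 0.19, adjusted p 0.0367 in the same edgeR test). PPARA lost its call without dex replicate 1 (adjusted p 0.0720), dex replicate 2 (0.0811) or etoh replicate 2 (0.175), and in DESeq2 (0.210). PPARG had 34.7 ± 4.08 CPM in dex and 40.5 ± 5.10 CPM in etoh, and RXRB had 25.0 ± 1.27 CPM in dex and 20.1 ± 4.53 CPM in etoh, and neither passed. RXRB passed without etoh replicate 2, with a log2 fold change of 0.57 (adjusted p 0.0293).

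The genes whose profile over the 4 libraries was nearest to ACSL1 were sought among 4175 tested genes with a mean CPM within 2-fold of it, by the Euclidean distance between log2(CPM + 1) values centred on each gene's mean. Among the nearest were MT2A, a metallothionein, PDK4, a kinase that inhibits pyruvate dehydrogenase, ELL2, a transcription elongation factor, and CPEB4, an RNA-binding protein. MT2A lay at a distance of 0.0919, with 113 ± 5.18 CPM in dex and 37.6 ± 1.49 CPM in etoh. PDK4 lay at 0.107, with 117 ± 12.3 CPM in dex and 36.7 ± 3.45 CPM in etoh. ELL2 lay at 0.188 and CPEB4 at 0.207. For ACSL3, among 1283 candidates, the nearest were LEPREL1, a prolyl hydroxylase of collagen, at 0.0388, CHP1, a calcineurin B-like protein, at 0.0471, and CALCOCO2, an autophagy receptor, at 0.0487. TCEB1, the elongin C gene, followed at 0.0542 and RBM47, an RNA-binding protein, at 0.0793. With 4 libraries in 2 groups, such nearness is mainly a like fold change between the groups, and the values are a description only.

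**Figure D5:**
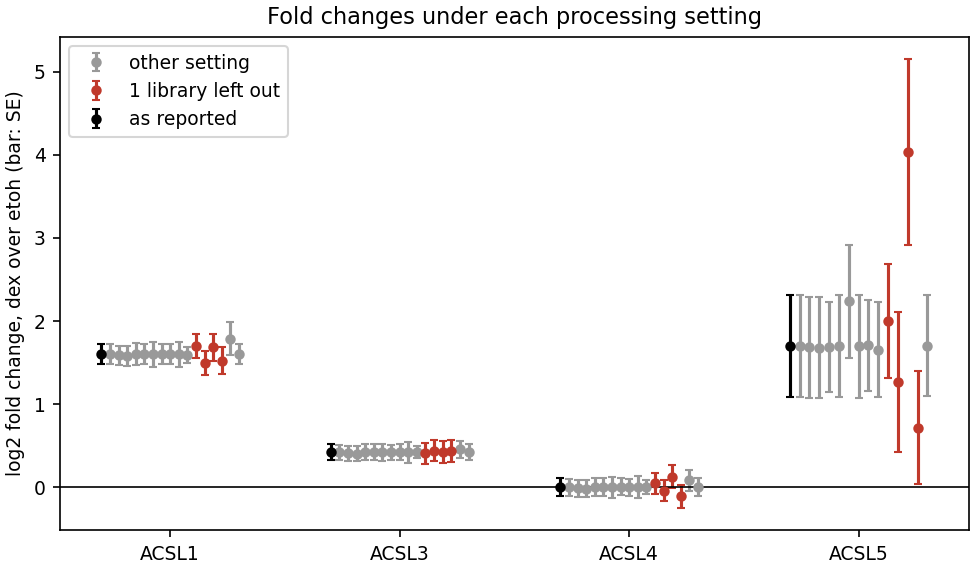
Log2 fold change (dex over etoh) with its SE for the 4 tested synthetase genes as reported and under each other processing setting, with settings that leave out 1 library in red. ACSL1 stayed between 1.4997 and 1.79 and ACSL3 between 0.41 and 0.46, while ACSL4 crossed 0 and ACSL5 ranged from 0.72 to 4.03.

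ACSL1 and ACSL3 passed the test under each setting run, scalings, filters, tools and removal of each library included. Counted on the largest transcript of each gene alone, the log2 fold change was 1.79 for ACSL1 and 0.46 for ACSL3. Coding transcripts alone gave the same calls, but this setting could not test the members. All their listed transcripts carry a coding sequence, so their own counts were unchanged and only the other genes differed.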

How the data were processed

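Per the labels' protocols, total RNA was purified on columns and DNase-treated, and mRNA libraries were prepared on an automated platform. The authors deposited raw read counts per GENCODE-style transcript, with its length. The submitters' processing notes name the tools CASAVA, Bowtie, SAMtools and DESeq2 without versions or roles. How reads were aligned, to which build and annotation, and whether by strand: not given in the sources used here. The row without a transcript name, which holds unaligned reads (17.2% and 18.7% of all reads in dex, 18.5% and 17.2% in etoh), entered neither library sizes nor tests.

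Transcript counts were summed per gene identifier. CPM is reads per 1000000 aligned reads. Tests used edgeR 4.0.16 under R 4.3.3 (filterByExpr with a minimum count of 10, TMM factors, prior count of 0.125, two-sided quasi-likelihood test, Benjamini-Hochberg adjustment over all features tested), per gene, per transcript and, with diffSpliceDGE, for transcript usage. The SE is the absolute log2 fold change divided by the square root of F. The biological coefficient of variation was 8.08% for genes. No libraries were duplicates: chi-square per degree of freedom was 5.81 for the dex pair, 7.60 for the etoh pair and at least 16.7 for pairs across groups. Intervals are exact at the 95% level and cover counting error only, as the reads carry no molecular identifiers. Alternatives used DESeq2 1.42.0 and limma 3.58.1. The code was tested on simulated data. Positions and shared stretches of 36 bases came from GENCODE 29 and promoter sequences from RefSeq, GRCh38.p14.

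The members, the lists of related genes and the tests were chosen with earlier results of these data known. The genes named are the 5 synthetases, of each list the members that passed (at most 5) and the 2 most abundant that did not, and the 5 nearest profiles. Of the genes this rule names, 2 are not reported here. Transcripts with a mean of at least 1 CPM in a group are covered singly or by their range. FKBP5, TSC22D3 and the markers serve as checks.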

Additional observations from a re-analysis of the deposited data

How the results depend on the processing

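ACSL1 and ACSL3 kept their direction and stayed past the threshold under each of the 17 alternatives run, at log2 fold changes of 1.4997 to 1.79 for ACSL1 and 0.41 to 0.46 for ACSL3. With 1 library left out the ranges were 1.4997 to 1.70 for ACSL1, 0.41 to 0.44 for ACSL3, -0.11 to 0.13 for ACSL4 and 0.72 to 4.03 for ACSL5. A library left alone in its group was taken to vary as the libraries of the other group do. Of the 17, the setting with coding transcripts alone left the members' own counts unchanged and could not test them. ACSL4 turned to -0.011 with upper-quartile factors and to -0.013 with library totals. ACSL5 passed with no filter (1.69), with limma-voom (2.24) and with the replicate number as a block (1.71); DESeq2 gave it no adjusted p, and its largest transcript alone was not tested. The causes were not tested, and few reads limit ACSL5 and ACSL6.

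Genes called numbered 657 higher and 389 lower with DESeq2, and 629 higher and 366 lower at an adjusted p of 0.01. With 1 library left out they numbered 705 to 1159 higher and 406 to 806 lower. Transcripts called numbered 850 higher and 460 lower with DESeq2, and 1161 to 2064 higher and 633 to 1329 lower with 1 library left out. Synthetase transcripts called were 9 higher with DESeq2 and 10 to 12 higher with 1 library left out, and 0 lower in these fits. Transcript usage was called for 3 transcripts with no filter and for 0 to 2 with 1 library left out. Of the other pathway genes, 2 were lower with upper-quartile factors, library totals or no filter, and 0 with DESeq2, the largest transcript per gene or an adjusted p of 0.01. With 1 library left out, 6 to 9 of them were higher and 0 to 3 lower.

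The labels do not say that replicate numbers pair libraries, and deviations of same-numbered libraries from their group means had a correlation of -0.146 over 14474 genes. The replicate block gave 974 genes higher and 584 lower, and among the named genes and synthetase transcripts it changed 2 calls, ACSL5 passing (adjusted p 0.0208) and ACSL3-002 failing (0.129). With the numbers crossed, a block chosen after seeing the data, 1538 genes were higher and 1172 lower, 3018 transcripts higher and 2124 lower, 13 other pathway genes higher and 5 lower, and ACSL5 passed at 1.66 (adjusted p 0.03996), as did SCD at -0.24 (adjusted p 0.02001).

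Values near 0 changed sign with 1 library left out. Log2 fold changes ranged from -0.18 to 0.0068 for ACSBG1, -0.26 to 0.023 for ACBD5, -0.21 to 0.019 for FABP5 and -0.029 to 0.15 for LPCAT1, and ACOT9 was -0.084 on its largest transcript. Those of transcripts ranged from -0.075 to 0.23 for ACSL3-005, -0.052 to 0.18 for ACSL4-003, -0.18 to 0.025 for ACSL4-001, -0.12 to 0.084 for ACSL4-201, -0.0078 to 0.41 for ACSL4-010, -0.39 to 0.84 for ACSL4-008 and -0.16 to 0.78 for ACSL4-007. Log2 usage ranged from -0.26 to 0.24 for ACSL3-003, -0.30 to 0.023 for ACSL3-012, -0.10 to 0.12 for ACSL1-011, -0.27 to 0.23 for ACSL1-009, -0.19 to 0.14 for ACSL1-001, -0.17 to 0.30 for ACSL1-003, -0.11 to 0.25 for ACSL1-201, -0.049 to 0.46 for ACSL4-010, -0.43 to 0.72 for ACSL4-008 and -0.037 to 0.66 for ACSL4-007.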
